A study of Homo sapiens with 18 samples.

Results

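The apolipoprotein L (APOL) genes of human chromosome 22 were followed in sorted lymphoma cells from mice that had received tazemetostat or vehicle before CART19 cells. The genes described are APOL1, APOL2, APOL3, APOL4 and APOL6, the 5 rows of the 58735-gene count table that carry these symbols. They were selected on their measured levels, the counts per mouse in tazemetostat against vehicle mice, so the difference between these groups is a description of the members. No p-value is given for a member, and counts of members past a threshold stand beside the share of all genes and support nothing. Of the 5 genes, 4 had enough counts to enter a fit of 20301 genes, and APOL4 did not. APOL5, the remaining gene of the family, was not among the chosen genes and is given for comparison.

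The APOL proteins share a helical core that can insert into membranes. APOL1 is the one with a signal peptide and is secreted into the blood on high-density lipoprotein particles, where it kills trypanosomes by forming pores. The others stay inside cells. APOL3 acts with guanylate-binding proteins against bacteria in the cytosol, and APOL6 has been linked to cell death through mitochondria. Interferon-gamma, which activated T cells release, is a known inducer of the family, in part through the transcription factor IRF1, and tumour necrosis factor is another.

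All cells were OCI-Ly18, a human cell line from a diffuse large B-cell lymphoma that carried a green fluorescent protein and grew under the skin of NSG mice. NSG mice lack their own mature B, T and natural killer cells and keep myeloid cells. From day 3 the vehicle group (mice M_766, M_769 and M_770) received vehicle and the tazemetostat group (M_767, M_768 and M_774) received 150 mg/kg of tazemetostat a day by gavage, both for 14 days. Tazemetostat inhibits EZH2, the enzyme of the repressive PRC2 complex. Every mouse of both groups was then infused with CART19, T cells engineered with a chimeric antigen receptor. After 11 days the fluorescent tumour cells were sorted. The sources used here do not give the age of the mice or say whether dosing went on after the infusion. Mice given UTD cells, which the labels name, were not analysed here. The comparison asks how earlier EZH2 inhibition bears on the tumour cells' expression after CART19 exposure.

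Each mouse gave 3 libraries (A, B and C, whose meaning is not stated), so the 18 libraries were summed to 6 mice, and every mean below is over 3 mice. A library had between 16124494 and 26336269 counts, and the sum for a mouse was between 55712115 and 69816184. A gene was called where the quasi-likelihood test of edgeR gave an adjusted p under 0.05 over the 20301 genes. DESeq2 and limma voom were run beside it. Library M_768_C stood apart, with a scaling factor (TMM) of 0.90 against a highest value of 1.03. Relative to the other libraries of its mouse, its genes of up to 3024 bases had a median log2 difference of 0.39 and those of 7395 bases or more one of -0.31. The 6 B-cell markers summed to 2500 to 3020 CPM (counts per 1000000 scaled counts) in vehicle mice and to 2670 to 2690 CPM after tazemetostat. Of 14 T-cell markers 4 were tested. CD3D and CD3G had 0 counts, and the sum was 116 to 153 CPM in vehicle mice and 107 to 135 CPM after tazemetostat, nearly all of it TRBC2. Myeloid markers summed to 1.2 to 1.56 CPM and endothelial markers to 1.57 to 2.03 CPM over all mice. The counted genes are human, so these and the fibroblast markers are not a measure of cells of the host mouse. The fibroblast markers summed to 2.85 to 6.46 CPM in vehicle mice and to 3.98 to 6.15 CPM after tazemetostat, and the log2 fold change was positive for 4 of the 5 that were tested (median 0.32). Of these 0 were called by edgeR, DESeq2 or limma voom. PDGFRB, singled out after its values were seen, was the 1 with an unadjusted p under 0.05, at 0.247 ± 0.113 CPM with vehicle and 0.618 ± 0.178 CPM with tazemetostat, without overlap (log2 fold change 1.34, SE 0.406, edgeR adjusted p = 0.496). The part of cells other than lymphoma cells, human or murine, in the APOL difference was not tested. The 6 tested PRC2 genes had a median log2 fold change of 0.01, with 0 called by edgeR, 1 higher and 1 lower at an unadjusted p of 0.05 and 0 called by DESeq2 or limma voom. EZH2 itself was at 207 ± 9.02 CPM with vehicle and at 208 ± 8.4 CPM with tazemetostat (SD, n = 3 mice each).

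The family lies in 2 groups on chromosome 22 (GRCh38, coordinates as deposited). APOL6 (35648395 to 35668409, plus strand) and APOL5 (35717872 to 35729483, plus strand) lie 49.5 kb apart. After a further 410.8 kb, which holds the splicing regulator RBFOX2, come APOL3 (36140330 to 36166177), APOL4 (36189124 to 36204840) and APOL2 (36226203 to 36239954), all on the minus strand, and APOL1 (36253010 to 36267530) on the plus strand. These 4 genes span 127.2 kb. APOL2 and APOL1 are divergent, with 13.1 kb between their ends. In GENCODE release 29 the gene models of all 6 APOL genes overlap 0 other genes on either strand. APOL6 and APOL5 have 1 annotated transcript each, APOL2 has 9, APOL1 and APOL4 have 12 and APOL3 has 21.

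Close paralogs can share reads, so windows of their annotated transcripts were compared with those of every other gene. Of 50-base windows, 0.608% of those of APOL1 also occur in another APOL gene, as do 0.383% for APOL2 and 0.14% for APOL3. The share was 0% for APOL4, APOL5 and APOL6. With any other gene APOL1 shared 3.94% of these windows, APOL4 2.07%, APOL2 1.91%, APOL6 0.417% and APOL3 0.14%. With 100-base windows 0% was shared with any gene for all 6 genes. The sources used here do not give the read length.

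Some annotated transcripts of APOL1, APOL2 and APOL3 share a short element near their starts. It is shown because it has the letters of an interferon-stimulated response element core and interferon is a known inducer of the family. The core was searched as a pair of GAAA half-sites with any 2 bases between them, on both strands, so that it reads as a pair of TTTC half-sites on the other strand. This search was added after the values were seen. Each 30-base stretch is written 5′ to 3′ on the transcript, from GENCODE release 29 on GRCh38, with the matched letters in capitals.
APOL1: ttgtgacTTTCACTTTCCCTTTCgaattcc
APOL2: ttgtgacTTTCACTTTCCCTTTCgaattcc
APOL3: aagttgtgacTTTCACTTTCccttttgggt

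The stretch of APOL1 is chr22:36253067-36253096 (plus strand), in the first exon and 5′ UTR of an annotated transcript. That of APOL2 is chr22:36239564-36239593 (minus strand), likewise in a first exon and 5′ UTR. The 30 bases of both are identical and hold 2 overlapping matches each. That of APOL3 is chr22:36160795-36160824 (minus strand), in a first exon whose annotated transcript is coding there, with 1 match. Within the first 100 bases of their protein-coding transcripts the core was present for APOL1 (4 of 8 transcripts) and APOL2 (1 of 5), against 2.77% of 19668 protein-coding genes with a match in any transcript. Within 200 bases APOL3 joined them (4 of 6 transcripts), against 5.29% of 19658 genes. APOL4, APOL5 and APOL6 had no match in either window. The interferon-gamma-activated site TTCNNNGAA, which reads the same on both strands, was in none of the 6 genes' transcripts over 200 bases, against 12.3% of genes. A match is a description of letters and not of a bound site, and the DNA upstream of the starts was not searched.

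Compared per kilobase of the deposited gene length, the order of levels was APOL2, APOL6, APOL3 and APOL1 in all 6 mice. That length sums the exons of all annotated transcripts, 21 for APOL3, 12 for APOL1, 9 for APOL2 and 1 for APOL6. Which transcripts were expressed was not determined, so the order can depend on the length used. In vehicle mice APOL2 was at 19.0 ± 1.85 CPM per kb, APOL6 at 9.51 ± 2.36, APOL3 at 7.36 ± 2.43 and APOL1 at 3.26 ± 1.07 CPM per kb (SD, n = 3). Over all 6 mice, of both groups, APOL2 stood between the 86.9th and 93.1st percentile of tested genes per mouse, and APOL1 between the 52.5th and 67.8th. Neighbours in the order kept apart within each mouse: APOL2 was 1.69 to 2.51 times APOL6, and APOL6 was 1.16 to 1.65 times APOL3. Across mice APOL6 and APOL3 overlapped, since the highest vehicle level of APOL3 (10.1 CPM per kb) was above the lowest of APOL6 (6.98). APOL5 was at 0.319 ± 0.0661 CPM per kb in vehicle mice, far below these 4 genes.

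**Figure D1:**
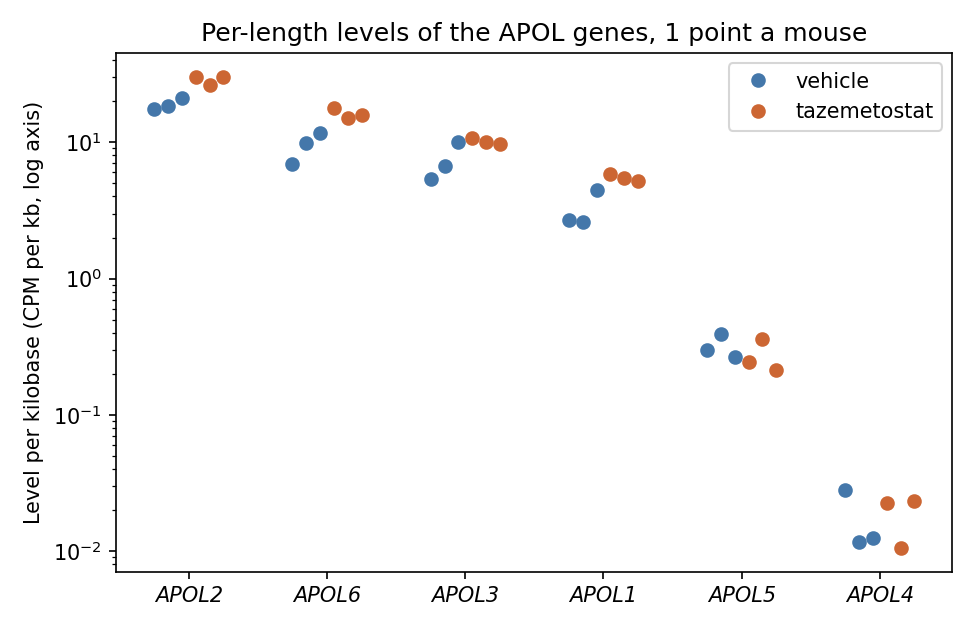
Level per kilobase of gene length (CPM per kb, logarithmic axis) of 6 APOL genes, 1 point per mouse, vehicle mice to the left and tazemetostat mice to the right within each gene. APOL2 lies highest and APOL1 lowest of the 4 well-expressed genes, and APOL5 and APOL4 lie below 1 CPM per kb in every mouse.

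APOL1, the secreted trypanosome-killing member, had 9.43, 9.13 and 15.8 CPM in vehicle mice M_766, M_769 and M_770. In tazemetostat mice M_767, M_768 and M_774 it had 20.4, 19.2 and 18.2 CPM. The groups did not overlap, but M_770 stood much nearer to the tazemetostat mice than the other vehicle mice did. The means were 11.5 ± 3.78 and 19.3 ± 1.11 CPM (SD, n = 3 each), a log2 fold change of 0.75 (SE 0.191) from tazemetostat over vehicle. In bulk RNA, more expressing cells and more RNA per cell cannot be told apart.

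APOL2, an intracellular member found at the endoplasmic reticulum, had 60.9, 64.3 and 73.4 CPM with vehicle and 105, 91.9 and 106 CPM with tazemetostat, mice in the same order. It varied least among the vehicle mice, and every tazemetostat mouse was above every vehicle mouse. The means were 66.2 ± 6.45 and 101 ± 7.81 CPM, a log2 fold change of 0.61 (SE 0.102). The lowest tazemetostat mouse was at 1.25 times the highest vehicle mouse.

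APOL3, the member that attacks bacteria in the cytosol, had 31.7, 39.2 and 59.4 CPM with vehicle and 63.8, 59.2 and 57.0 CPM with tazemetostat, mice in the same order. The groups overlapped, because M_770 was above 2 of the 3 tazemetostat mice. The means were 43.4 ± 14.4 and 60.0 ± 3.48 CPM, a log2 fold change of 0.47 (SE 0.187), the smallest of the 4 tested members. Without M_770 it was 0.77 and without M_766 it was 0.29.

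APOL6, the cell-death-linked member that lies apart from the cluster, had 70.7, 99.9 and 118 CPM with vehicle and 181, 152 and 160 CPM with tazemetostat, mice in the same order. The groups did not overlap, and the vehicle mice were again spread widely. The means were 96.2 ± 23.9 and 164 ± 15.0 CPM, a log2 fold change of 0.77 (SE 0.162), the largest of the 4. Without library M_768_C it was 0.81. APOL6 made up 44 ± 3.05% of the counts of the 5 members in vehicle and 47.6 ± 1.05% in tazemetostat mice.

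APOL4 was close to absent. Its counts were 8 in M_766 and 3 each in M_769 and M_770, 14 in all. With tazemetostat they were 7 in M_767, 3 in M_768 and 6 in M_774, 16 in all. No difference was detectable at this depth. APOL5 had 28, 33 and 21 counts with vehicle and 25, 34 and 18 with tazemetostat, mice in the same order, with a log2 fold change of -0.22 (SE 0.329), and its groups overlapped.

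**Figure D2:**
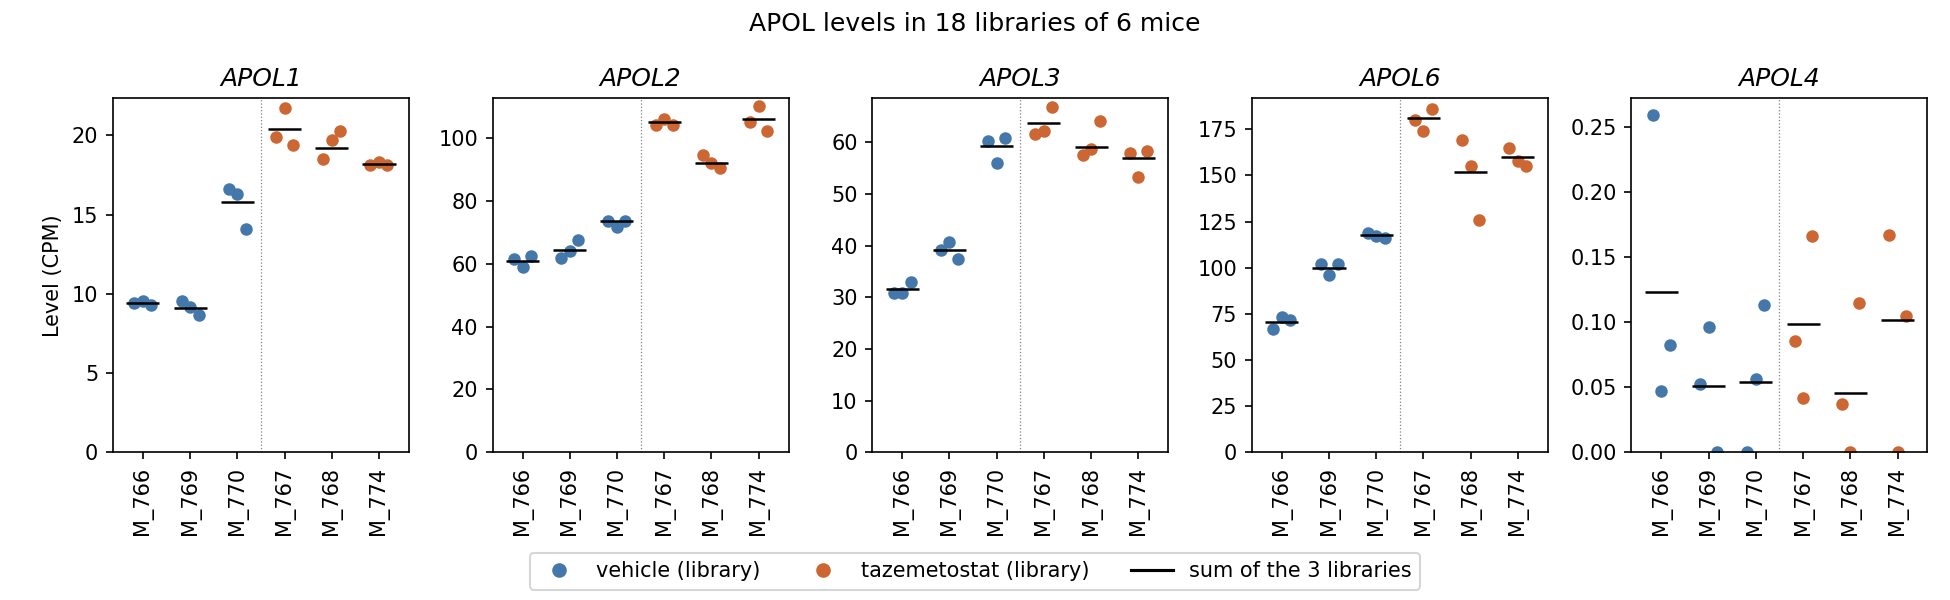
Level (CPM, linear axis from 0, a separate scale per gene) of the 5 APOL genes in 18 libraries, 3 points per mouse, with the level of the summed libraries of a mouse as a line. Libraries of a mouse lie close together for APOL1, APOL2, APOL3 and APOL6, apart from those of M_768 for APOL6. Vehicle mouse M_770 lies above the other vehicle mice for each of these, and APOL4 rests on 0 to 5 counts per library.

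Over the 5 members, 3 (APOL1, APOL2 and APOL6) were higher in every tazemetostat mouse than in every vehicle mouse, and 6.58% of all tested genes were so. In the edgeR quasi-likelihood fit of all 20301 genes, 0 of the 4 tested members passed an adjusted p of 0.05, against 0.0345% of all genes in either direction and 0.0197% that were higher in tazemetostat mice. At an unadjusted p of 0.05 the members numbered 4 and the share of all genes was 6.55%. DESeq2 called 3 members and 0.656% of its genes, and limma voom on the 18 libraries with the mouse as random effect called 4 members and 1.26%. The voom fit took a correlation of 0.354 between libraries of a mouse for all genes alike. For APOL1 the SD of log2 CPM was 0.0754 between libraries of a mouse and 0.311 between mice of a group. For such genes libraries counted as more independent than they were, so voom calls here and in the lists below can be too many. Without vehicle mouse M_770 edgeR called 4 members and 0.278% of genes, and with all mice and no low-count filter it called 4 members and 0.685%. These counts come from the comparison with which the members were chosen and support nothing further. Their log2 fold changes ranked between 248 (APOL6) and 817 (APOL3) from the top of 20301, where the median of all genes was -0.01.

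The vehicle mice were spread more widely than the tazemetostat mice for APOL1, APOL3 and APOL6, and for each of the 4 tested members M_770 was the highest of them. M_770 was at 1.70 times the mean of the other vehicle mice for APOL1, 1.68 times for APOL3, 1.38 times for APOL6 and 1.17 times for APOL2. The mean of the tazemetostat mice was 1.01 times M_770 for APOL3 and 1.37 times for APOL2. Among known interferon-gamma target genes, M_770 was the highest vehicle mouse for 18 of 27 tested genes of the interferon-gamma response list, against 33.8% of all tested genes. It was so for 11 of 33 genes of the type I interferon list, where M_766 was the highest for 21. This count was made after the APOL values had been seen, and its part in the APOL difference was not tested.

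Libraries of the same mouse differed far less than mice did. The SD of log2 CPM between libraries of a mouse was 0.0754 for APOL1, 0.0433 for APOL2, 0.0669 for APOL3 and 0.0984 for APOL6. Between mice of a group it was 0.311, 0.123, 0.329 and 0.284 in the same order. Over the 9 vehicle libraries APOL6 ran from 66.6 to 119 CPM (median 102), and over the 9 tazemetostat libraries from 126 to 186 CPM (median 165). Library M_768_C gave the lowest of the latter. The libraries of M_768 were at 169, 155 and 126 CPM for APOL6 (A, B and C), and their spread was 62.4 times the variance that counting alone gives, against 4.72 in the next most variable mouse. The same libraries were at 18.5, 19.7 and 20.3 CPM for APOL1 and at 57.5, 58.7 and 64.2 CPM for APOL3, where M_768_C was the highest. For APOL2 they were at 94.4, 92 and 90.2 CPM, where M_768_C was the lowest tazemetostat library, with a log2 difference of -0.05 from the others of its mouse. APOL6 has the longest deposited length of the 4 (10121 bases, against 3519, 3484 and 5901 for APOL1, APOL2 and APOL3), and APOL2 has the shortest. The part of length in these library differences was not tested. A log2 difference as low as that of APOL6 in M_768_C (-0.36) or lower was found in 22.1% of 12714 genes.

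**Figure D3:**
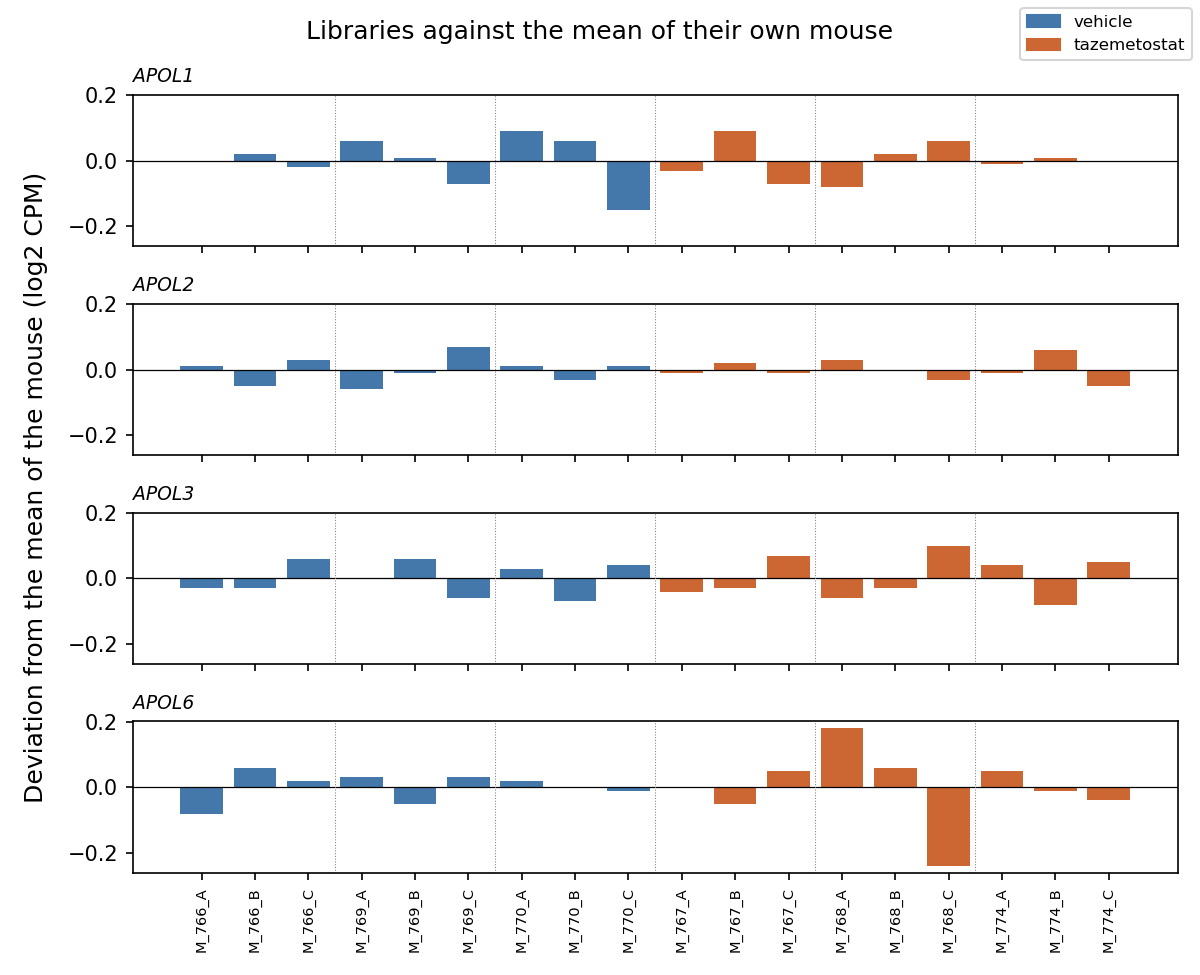
Deviation of each of 18 libraries from the mean of its own mouse (log2 CPM) for APOL1, APOL2, APOL3 and APOL6, with dotted lines between mice and colours for the groups. Most bars lie within 0.1 of 0, and the APOL6 bars of M_768 reach 0.18 in library A and -0.24 in library C.

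Within mice the deviations were too close to counting noise to show whether the levels of the members are related. The spread of libraries was at most 2.27 times the variance that counting alone gives for APOL1. It was at most 2.87 times for APOL2 and 4.21 times for APOL3. Over the deviations of the 18 libraries from their mouse means, Pearson's r was -0.35 for APOL1 with APOL2, -0.06 for APOL1 with APOL3, -0.36 for APOL1 with APOL6 and -0.36 for APOL2 with APOL3. It was 0.19 for APOL2 with APOL6 and -0.41 for APOL3 with APOL6, and without library M_768_C these were -0.04 and 0.02. Without that library r was -0.25 for APOL1 with APOL3 and -0.23 for APOL1 with APOL6. These are descriptions over libraries that share mice and differ in depth.

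The protein-coding genes around the family had log2 fold changes near or below 0. Of 75 other rows within 1 Mb of a member, APOL5 included, 27 were tested, 5 had a positive log2 fold change and 22 a negative one, with a median of -0.12 against -0.01 for all genes. Under edgeR 0 were called, with 1 higher and 0 lower at an unadjusted p of 0.05, and DESeq2 and limma voom called 0. Among the 20 tested protein-coding neighbours the log2 fold changes ran from -0.35 to 0.04. MYH9, the non-muscle myosin heavy chain gene next to APOL1, was at 902 ± 143 CPM with vehicle and 831 ± 87.5 CPM with tazemetostat, a log2 fold change of -0.12 (SE 0.131). RBFOX2, which lies between the APOL groups, was at 34.2 ± 4.98 and 31.1 ± 3.36 CPM (-0.14, SE 0.125). MCM5, a replicative helicase subunit on the far side of APOL6, was at 388 ± 35.3 and 341 ± 5.38 CPM (-0.19, SE 0.0949), without overlap between the groups. The gene higher at the unadjusted level was Z95114.3 (36137430 to 36139350, minus strand), a short transcript model just past the 3′ end of APOL3 on its strand, named after its values were seen. It was at 0.494 ± 0.157 and 0.884 ± 0.284 CPM, with a log2 fold change of 0.85 and an edgeR adjusted p = 0.681.

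**Figure D4:**
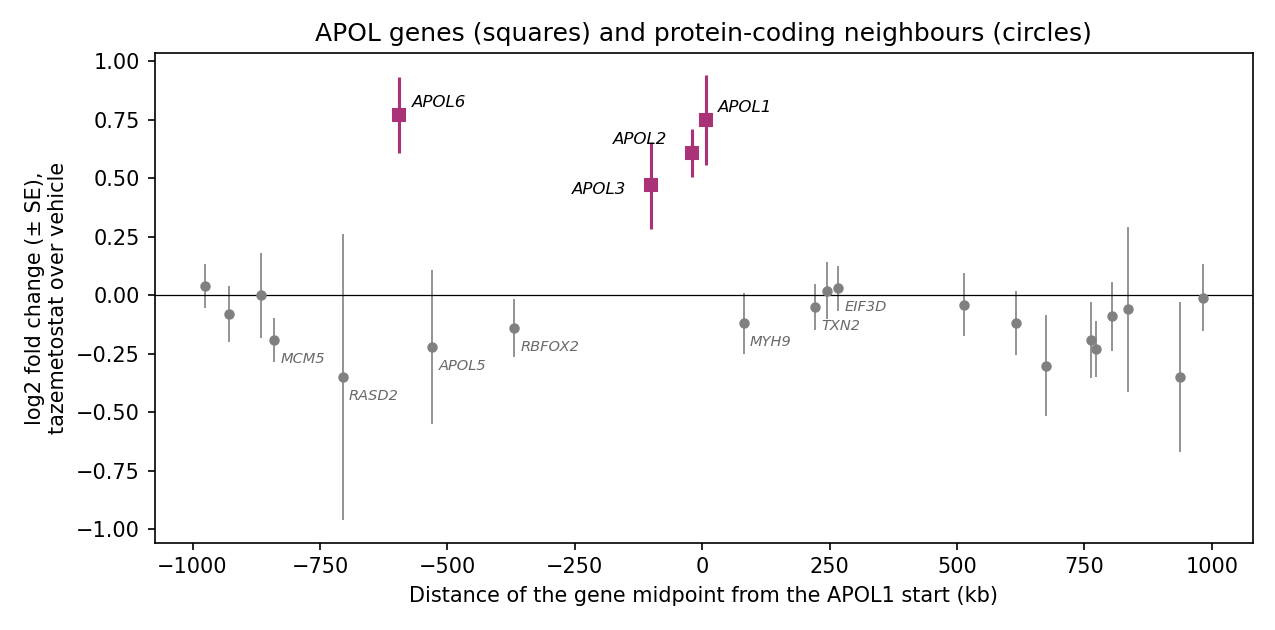
Log2 fold change of tazemetostat over vehicle, with its SE as bars, against the distance of each gene's midpoint from the start of APOL1 in kb, for 4 APOL genes (squares) and 20 tested protein-coding neighbours within 1 Mb (circles). The squares lie between 0.47 and 0.77, and every circle lies at 0.04 or below.

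In the pathway that is known to induce the family, the receptor genes had log2 fold changes near 0, and IRF1 was higher in every tazemetostat mouse than in every vehicle mouse without passing the adjusted p over all genes. IFNG, the ligand, had 0 counts in each vehicle mouse and 1 to 4 in each tazemetostat mouse, too few to compare. The receptor chains IFNGR1 (18.4 ± 0.555 and 18.9 ± 1.13 CPM, vehicle first) and IFNGR2 (35 ± 3.44 and 33.9 ± 0.4 CPM) had log2 fold changes of 0.04 and -0.05. The receptor kinases JAK1 and JAK2 were at -0.07 and 0.32. IRF1, a transcription factor that interferon-gamma induces early, had 210, 201 and 218 CPM in the vehicle mice and 294, 294 and 291 CPM in the tazemetostat mice, in the order above (log2 fold change 0.48, edgeR adjusted p = 0.183). Its vehicle mice were far closer together than those of APOL1, APOL3 and APOL6. SOCS1, a feedback inhibitor of the kinases, was at 41.2 ± 3.11 and 61.7 ± 7.68 CPM (log2 fold change 0.58, edgeR adjusted p = 0.219).

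Of 16 tested interferon-gamma signalling genes, 14 had a positive log2 fold change (median 0.32) and 0 passed edgeR's adjusted p in either direction, with 8 higher and 0 lower at an unadjusted p of 0.05. DESeq2 and limma voom called 6 each, all higher. Of all tested genes 48.1% had a positive log2 fold change, and 6.55% had an unadjusted p under 0.05 in either direction. DESeq2 called 0.656% of its genes and limma voom 1.26%. These shares stand beside the counts of every list. Of 27 tested interferon-gamma response genes 27 were positive (median 0.56) and 0 passed, with 22 higher at an unadjusted p of 0.05, 11 called by DESeq2 and 15 by limma voom. GBP1, the guanylate-binding protein gene whose product works beside APOL3, was at 193 ± 85.8 and 361 ± 43.9 CPM (log2 fold change 0.91, edgeR adjusted p = 0.464). CASP1, an inflammatory caspase (0.66), and the checkpoint ligand gene CD274 (0.85) were among those with the smallest p. Of 33 tested type I interferon genes 32 were positive (median 0.66) and 1 passed, IFI27, which rose (log2 fold change 1.12, edgeR adjusted p = 0.029). At an unadjusted p of 0.05, 29 of them were higher and 0 lower, and DESeq2 called 16 and limma voom 20.

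Of the other known inducing pathway, tumour necrosis factor signalling, 13 genes were tested and 10 were positive (median 0.06), 0 passed with edgeR, 0 had an unadjusted p under 0.05, and DESeq2 and limma voom called 0. TNF itself was at 1.03 ± 0.813 and 2.18 ± 0.73 CPM, a log2 fold change of 1.09 (SE 0.513), and its groups overlapped. NFKB1 was at 52.4 ± 7.81 and 54.8 ± 1.39 CPM and RELA at 107 ± 6.03 and 108 ± 5.79 CPM. Dissociation-stress genes, early-response and heat-shock genes switched on while tissue is broken up, moved with the groups, with 15 of 17 positive (median 0.85), 0 called by edgeR, 11 higher at an unadjusted p of 0.05, 4 called by DESeq2 and 11 by limma voom. Their summed level was 922 to 1320 CPM in vehicle and 1500 to 1980 CPM in tazemetostat mice, and their part in the APOL difference was not tested.

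Genes of other apolipoproteins share a name and not a gene family with the APOL genes. Of 17 listed, 7 were tested, 3 were positive and 4 negative (median -0.01), and 0 passed with edgeR, at an unadjusted p of 0.05 or with the other tools. APOE was at 1.70 ± 0.264 and 1.69 ± 0.294 CPM. APOA1, the main protein of the lipoprotein particles that carry APOL1 in blood, was at 0.161 ± 0.021 and 0.169 ± 0.0906 CPM and was not tested. Of 7 genes for reported partners of APOL proteins 4 were tested, with a median log2 fold change of 0.02 and 0 called by edgeR. GBP1 was the 1 partner with an unadjusted p under 0.05, DESeq2 called 0 and limma voom called 1. HPR, the haptoglobin-related protein that travels with APOL1, and NCS1, a calcium sensor that binds APOL3, had under 0.1 CPM in both groups. PI4KB, a lipid kinase regulated through NCS1, was at 66.8 ± 2.49 and 64.3 ± 4.02 CPM, and VAMP8, a vesicle fusion protein, at 73.2 ± 13 and 75.5 ± 10.7 CPM.

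The genes most like the family over the 18 libraries were sought among 12710 others by Pearson's r with the mean standardized level of the 4 tested members. They were LGALS3BP, a secreted galectin-3-binding glycoprotein (r = 0.99), WARS, the cytosolic tryptophanyl-tRNA synthetase (0.99), and TAP2, a subunit of the peptide transporter of antigen presentation (0.984). WARS and TAP2 were also on the interferon-gamma response list. The median r of all genes was 0.02 and the 95th percentile 0.74. LGALS3BP had 68.7, 89.1 and 141 CPM with vehicle and 188, 174 and 166 CPM with tazemetostat, mice in the same order, the same order within groups as APOL3. WARS had 274, 335 and 470 CPM and 691, 607 and 551 CPM in the same mice. This likeness includes the difference between the groups. Libraries of a mouse are not independent points, so r over the 18 libraries rests largely on 6 mice. Over the deviations from the mouse means, r was 0.171, 0.278 and 0.064 for these 3 genes. The most like genes over deviations were WDR3 (r = 0.874), GBAP1 (0.846) and DHX29 (0.811), where GBAP1 is a pseudogene that can share reads with its parent gene. Their log2 fold changes between groups were 0.12, 0.03 and 0.07. The 95th percentile of r over deviations was 0.47.

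**Figure D5:**
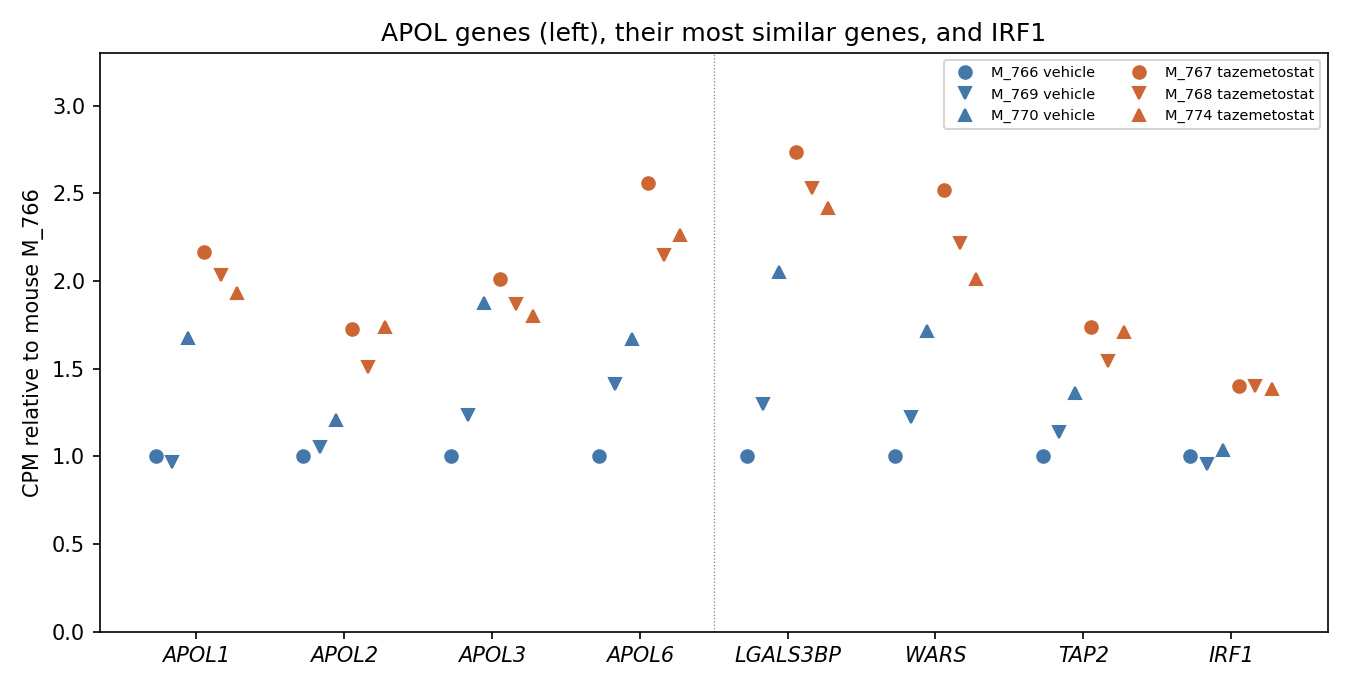
Level of 4 APOL genes, of their 3 most similar genes, and of IRF1 in each of 6 mice, as CPM divided by that of vehicle mouse M_766 (linear axis from 0), 1 symbol per mouse. The vehicle mice (blue) are spread for APOL1, APOL3, APOL6, LGALS3BP and WARS, with M_770 highest, and lie close together for APOL2 and IRF1.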

How the data were processed

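The authors deposited whole-number read counts per gene for 18 libraries, not normalized per the file headers and values, with a gene length per row. The genome build is hg38 per the submitters' processing notes, which also name DESeq2 without a role. Aligner, counter, annotation and strand are not stated and were not inferred. The coordinates of all 58735 gene IDs equal those of GENCODE release 29, and the deposited lengths of the APOL genes equalled their summed exons there. The 3 libraries of a mouse were summed. The quasi-likelihood test of edgeR 4.0.16 (R 4.3.3, TMM scaling, filterByExpr minimum 10) was run on these sums, with Benjamini-Hochberg adjustment over 20301 genes and a threshold of 0.05. The genes removed held 0.0602% of counts. CPM are counts per 1000000 of the TMM-scaled library. The SE of a log2 fold change was derived from its F statistic. Log2 CPM of libraries used a prior count of 2. Alternatives were other scaling factors, no filter, DESeq2 1.42.0, limma 3.58.1 voom on libraries, and leaving out a library or a mouse. The steps were checked on simulated counts, and the check set no demand on changes as small as those of the APOL genes. The members, lists and tests were chosen with earlier results of these data known. Named genes were the family, up to 3 most similar genes per measure (mean log2 CPM of at least 1), neighbours within 1 Mb, and list members by smallest p or role. Mouse numbers differ between the groups and pair nothing. Some items are not reported here.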

Additional observations from a re-analysis of the deposited data

Results flagged for a closer look

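Library M_766_A of the vehicle group stood apart from the other 8 vehicle libraries for APOL4, at 0.259 CPM against a median of 0.0561 CPM over the group. The gap to the next library was 0.564 of the group's whole range. The value rests on 5 counts, where the vehicle libraries held 0 to 5. For normally distributed values chance flags about 1 in 20 such groups, and each member was screened in each group. That rate need not hold for so few counts, and libraries of a mouse are not independent.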

How the results depend on the processing

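The log2 fold changes of APOL1, APOL2, APOL3 and APOL6 were positive in all 12 alternatives, which reuse the comparison that chose the members. Each moved by less than the SD between mice. Leaving out 1 of 3 mice can hardly move a group mean by that much, so this is no test of stability. The values ran from 0.61 to 1.06 for APOL1, 0.56 to 0.69 for APOL2, 0.29 to 0.77 for APOL3 and 0.60 to 0.95 for APOL6. Each was highest without M_770. The count of all genes called, 7 with edgeR, was 252 without a low-count filter, 119 with DESeq2 and 256 with limma voom on libraries. Leaving out each mouse gave 0 to 59 genes: 26 without M_766, 0 without M_769, 59 without M_770, 1 without M_767, 0 without M_768 and 0 without M_774. With no filter 4 members were among 0.685% of genes called. The cause of these shifts was not tested. The tumour necrosis factor list's median turned to -0.02 without M_766 and -0.04 without M_768, and was 0.23 without M_770. Without library M_768_C the within-mouse correlations of APOL6 turned to -0.04 with APOL2 and 0.02 with APOL3. The transcript-start share of 2.77% was 1.33% over 50 bases and 5.29% over 200. The planned motif search in upstream sequence was not run. No paired analysis was possible because the mice of the groups share no numbers. With 3 mice per group an exact permutation test cannot go below 0.1, and APOL4 is limited by its 30 counts.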
